A study of Homo sapiens with 2 samples.

Results

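Ubiquitin is attached to histone H2B by the RNF20 and RNF40 ligase with its partners and removed by, among others, the deubiquitinase module of the SAGA complex. Transcripts of 8 genes of these machines were followed by RNA sequencing in HCT116 cells, an established line from a human colorectal carcinoma. The genes are RNF20, RNF40, WAC, UBE2A, UBE2B, ATXN7L3, ATXN7 and ENY2, out of 21561 gene symbols kept from the assemblies. Kept symbols lay on a single main chromosome and strand and had 300 or more exonic bases. For each gene the transcript models with a RefSeq accession of that symbol were taken. Assembled models without an accession were added where they shared an exact intron with them on the same strand. This gave 21 models in the library labelled USP49 knockdown, of 67822 in all, and 24 in the control library, of 66412. RefSeq models made up 19 in each library, so 2 were assembled in the library labelled knockdown and 5 in control. Models that held fragments numbered 13 in the library labelled knockdown and 17 in control.

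The study compared USP49 knockdown cells with control cells, with 1 poly(A) library in each group. USP49 is a ubiquitin-specific protease for which histone H2B is a known substrate. Both libraries carry the same protocol text: a HCT116 line with a tetracycline-inducible USP49 knockdown (T-Rex system), kept in DMEM with serum, blasticidin and puromycin, given doxycycline and collected after 36 h. The labels do not say whether the RNA control was left without doxycycline, nor whether the line is 1 clone. Without a second library in either group, no difference can be set against the spread between replicates, and no p-value is given. The intervals are 95% counting intervals, exact Poisson for levels and exact binomial for ratios. They cover counting error only and take fragments as independent, which PCR copies of a molecule are not. Error in the assignment of fragments to models is left out too.

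RNF20 and RNF40 are RING finger proteins that act as a pair, the counterpart of Bre1 in yeast, and transfer ubiquitin to H2B from the conjugating enzymes UBE2A and UBE2B, the counterparts of yeast Rad6. WAC is an adaptor that binds the ligase and RNA polymerase II at transcribed genes. In SAGA, ATXN7L3 and ENY2 are needed for the activity of the protease USP22, and ATXN7 anchors this deubiquitinase module to the rest of the complex.

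Sequences of the exons and exon edges that differ between the models of UBE2A, WAC and ATXN7L3 are shown first, because the isoform results turn on them. They are from the GENCODE 29 transcripts on GRCh38, whose internal exons have the lengths of those in the hg18 models, and run 5′ to 3′ on the gene's strand. Capitals mark the skipped exon of UBE2A (chrX:119581507-119581596, plus strand), with the neighbouring 12 bases of the spliced transcript on each side in lower case. For WAC the first 120 bases of the skipped exon (chr10:28595733-28595852, plus strand) are in capitals after 12 bases of the exon before it. In the exon of ATXN7L3 (chr17:44196034-44196100, minus strand), capitals mark the bases found only in the long form. In the WAC exon starts (chr10:28610699-28610728 and chr10:28616173-28616202, plus strand), capitals mark the bases that a later splice acceptor leaves out.
UBE2A skipped exon: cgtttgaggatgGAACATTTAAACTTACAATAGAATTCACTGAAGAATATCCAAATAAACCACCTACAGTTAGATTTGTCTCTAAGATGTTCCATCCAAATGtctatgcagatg
WAC skipped exon start: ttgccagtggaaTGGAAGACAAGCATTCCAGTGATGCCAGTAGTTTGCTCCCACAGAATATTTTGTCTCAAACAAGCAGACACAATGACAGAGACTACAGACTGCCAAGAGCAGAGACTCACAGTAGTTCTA
ATXN7L3 exon: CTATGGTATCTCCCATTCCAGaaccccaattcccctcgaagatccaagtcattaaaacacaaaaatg
WAC exon 9 start: TTCTTACAGcagctgtgacacaagcctcac
WAC exon 12 start: TAGccagagaagtccatcacctggtcccaa
The UBE2A exon has 90 bases and the whole WAC exon 309, the stretch found only in the long form of ATXN7L3 has 21, and the later acceptors of WAC leave out 9 and 3. Each of these is a multiple of 3, and they come to 30, 103, 7, 3 and 1 codons in that order.

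UBE2A and UBE2B are near copies of each other, so the first 300 bases of each coding sequence are shown to let the similarity be read. The UBE2A bases span chrX:119574712-119582646 and those of UBE2B chr5:134371596-134388383, both on the plus strand of GRCh38, with introns left out. Capitals mark the bases that differ between the genes.
UBE2A coding start: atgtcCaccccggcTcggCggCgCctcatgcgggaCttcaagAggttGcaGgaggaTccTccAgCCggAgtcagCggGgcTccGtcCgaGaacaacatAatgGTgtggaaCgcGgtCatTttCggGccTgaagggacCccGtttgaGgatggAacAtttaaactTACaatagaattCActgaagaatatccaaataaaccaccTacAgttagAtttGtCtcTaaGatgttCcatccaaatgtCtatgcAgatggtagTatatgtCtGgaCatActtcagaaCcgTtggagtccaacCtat
UBE2B coding start: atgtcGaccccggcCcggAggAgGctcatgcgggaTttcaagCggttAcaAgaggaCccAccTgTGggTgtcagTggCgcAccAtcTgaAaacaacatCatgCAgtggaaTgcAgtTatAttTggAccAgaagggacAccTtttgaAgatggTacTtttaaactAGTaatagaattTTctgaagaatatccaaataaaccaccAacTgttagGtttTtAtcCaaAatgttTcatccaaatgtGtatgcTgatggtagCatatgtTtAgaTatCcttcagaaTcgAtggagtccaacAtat
Of these bases 59 differ. Over the whole coding sequence of 456 bases without the stop codon, 367 are identical (80.5%) and 89 differ, and the longest identical stretch is 25 bases. The assemblies hold no reads, so how fragments from identical stretches were divided between the genes was not tested, and the levels of both genes carry that uncertainty.

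The library labelled knockdown held 19960117 fragments and the control library 16378671, a ratio of 1.22. USP49, which lies on the minus strand of chr6:41873361-41971077, had 69 fragments on its RefSeq exons in the library labelled knockdown and 47 in control. Per length and depth this was 1.10 FPKM (interval 0.859 to 1.40) in the library labelled knockdown and 0.907 FPKM (0.665 to 1.21) in control, a ratio of 1.22 (0.827 to 1.81). Counted on every model named for the gene, it had 69 fragments in the library labelled knockdown and 206 in control, a ratio of 0.275 (0.206 to 0.363). In control the RefSeq model of USP49 was listed at 0, and all 206 fragments were on assembled models that reach past the RefSeq exons. The direction of USP49 thus depended on whether their fragments outside the RefSeq exons were counted. The label is used here as a name only. The 6 epithelial markers lay between 8.81 and 296 FPKM in the library labelled knockdown and between 8.67 and 329 FPKM in control. Of 11 leukocyte, fibroblast and endothelial markers, 1 was over 1 FPKM, COL1A1, at 6.56 FPKM in the library labelled knockdown and 6.89 FPKM in control.

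A gene's level is given as exon density: the fragments on the union of its RefSeq exons per kilobase, scaled to the fragment total of the library (depth-scaled FPKM). The log2 ratio is the library labelled knockdown over control after adding 1 FPKM to each, which understates changes of low genes. Gene coordinates are 1-based hg18 positions from the files.

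None of the 8 genes differed 2-fold between the libraries by exon density, by fragments on named models or by the sum over models. Their log2 ratios ran from -0.11 for ATXN7L3 to 0.18 for UBE2B, with 5 above 0, 3 below 0 and a median of 0.05. Over the 12150 genes that averaged at least 1 FPKM, the median log2 ratio was -0.0039, and 0.798% were past 2-fold either way, 0.305% higher and 0.494% lower. By fragments on named models 3.05% of all genes were past 2-fold, 1.43% higher and 1.62% lower, and by the sum 3.11%, 1.48% higher and 1.63% lower. The middle 95% of these genes lay between -0.31 and 0.25, and the 8 genes all lay inside that range. With 5 of 8 above 0 the genes stood beside 48.6% of all genes. Scaling to summed density in place of fragments put 6 of 8 above 0, with UBE2A crossing to 0.00034, beside 52.8% of all genes. Values without depth scaling put all 8 above 0, beside 94.8% of all genes. The depth-scaled ratio had an interval wholly above 1 for RNF40, WAC, UBE2B and ENY2 (4 of 8 genes, against 13.0% of all genes) and wholly below 1 for ATXN7L3 (1 of 8, against 14.1%). Intervals are narrower for genes with more fragments, and the shares of all genes were not matched for fragments. These counts are therefore not read as a result about the 8 genes.

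RNF20 lies on the plus strand of chr9:103335954-103365447, with 3940 exonic bases. It had 2181 fragments in the library labelled knockdown and 1778 in control. Its exon density was 28.1 FPKM (26.9 to 29.3) in the library labelled knockdown and 27.9 FPKM (26.6 to 29.2) in control. The intervals overlapped almost wholly, and the ratio was 1.01 (0.945 to 1.07), so that 94.0% of all genes lay at least as far from a log2 ratio of 0.

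RNF40, its partner in the ligase, lies on the plus strand of chr16:30680434-30695129, with 6019 exonic bases. The exon density was 37.5 FPKM (36.4 to 38.6) from 4471 fragments in the library labelled knockdown and 35.2 FPKM (34.1 to 36.4) from 3446 fragments in control. The library labelled knockdown was higher, the level intervals met at their edges, and the ratio was 1.06 (1.02 to 1.11). RNF20 stood at 0.748 of the RNF40 density in the library labelled knockdown and at 0.791 of it in control, so RNF20 was the lower of the ligase pair in both libraries.

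WAC lies on the plus strand of chr10:28862427-28952047 and has 5538 exonic bases. It had the highest exon density of the 8 genes in both libraries, 48.9 FPKM (47.6 to 50.3) in the library labelled knockdown and 45.1 FPKM (43.8 to 46.6) in control. The intervals did not overlap, and the ratio was 1.08 (1.04 to 1.13), from 5363 fragments in the library labelled knockdown and 4060 in control. Although above 1, this ratio was ordinary among genes: 33.6% of all genes lay at least as far from 0.

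UBE2A lies on the plus strand of chrX:118592527-118602407, with 2968 exonic bases. Its exon density was 38.6 FPKM (37.0 to 40.2) in the library labelled knockdown and 38.9 FPKM (37.2 to 40.7) in control. The intervals overlapped, and the ratio was 0.991 (0.932 to 1.05), from 2249 fragments in the library labelled knockdown and 1862 in control. The exon union includes a RefSeq model of 3 exons, NM_181777, that was listed at 0 in both libraries, which lowers this density: summed over models, the level was 64.4 FPKM in the library labelled knockdown and 65.6 FPKM in control.

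UBE2B, the second conjugating enzyme, lies on the plus strand of chr5:133734769-133755698, with 2631 exonic bases. It had 1935 fragments in the library labelled knockdown and 1397 in control. The exon density was 37.5 FPKM (35.9 to 39.2) in the library labelled knockdown and 33.0 FPKM (31.3 to 34.8) in control. These intervals did not overlap, and the ratio of 1.14 (1.06 to 1.22) was the furthest from 1 among the 8 genes, with 14.7% of all genes at least as far from 0. UBE2A stood at 1.03 times the UBE2B density in the library labelled knockdown and at 1.18 times in control. By the sum over models these were 1.72 times in the library labelled knockdown and 1.99 times in control, so UBE2A had the higher value under both measures, but within overlapping intervals by exon density in the library labelled knockdown.

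ATXN7L3, the adaptor that USP22 needs for activity, lies on the minus strand of chr17:39624699-39631055, with 3614 exonic bases. It was the only one of the 8 genes whose ratio had an interval below 1, at 0.924 (0.875 to 0.976). Its exon density was 39.1 FPKM (37.7 to 40.6) from 2787 fragments in the library labelled knockdown and 42.4 FPKM (40.7 to 44.1) from 2475 fragments in control. With the fragments of all named models, 2787 in the library labelled knockdown and 2604 in control, the ratio was 0.878 (0.832 to 0.927). The control library was the higher under both counts, and 34.7% of all genes lay at least as far from 0 by exon density.

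ATXN7, which ties the deubiquitinase module to SAGA, lies on the plus strand of chr3:63825273-63964176, with 7524 exonic bases. It was the lowest of the 8 genes in both libraries, at 10.8 FPKM (10.3 to 11.3) from 1613 fragments in the library labelled knockdown and 11.1 FPKM (10.5 to 11.7) from 1357 fragments in control. The intervals overlapped and the ratio was 0.975 (0.907 to 1.05). ATXN7L3 stood at 3.62 times the ATXN7 density in the library labelled knockdown and at 3.82 times in control.

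ENY2, a small protein that also belongs to the TREX-2 complex of mRNA export, lies on the plus strand of chr8:110415728-110427365, with 2976 exonic bases. Its exon density was 39.2 FPKM (37.6 to 40.9) from 2294 fragments in the library labelled knockdown and 36.3 FPKM (34.6 to 38.1) from 1742 fragments in control. The level intervals overlapped slightly, while the ratio was 1.08 (1.01 to 1.15). ENY2 stood at 1.00 times the ATXN7L3 density in the library labelled knockdown and at 0.857 times in control. By the sum over models these were 1.84 times in the library labelled knockdown and 2.87 times in control, the other direction between the libraries.

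**Figure D1:**
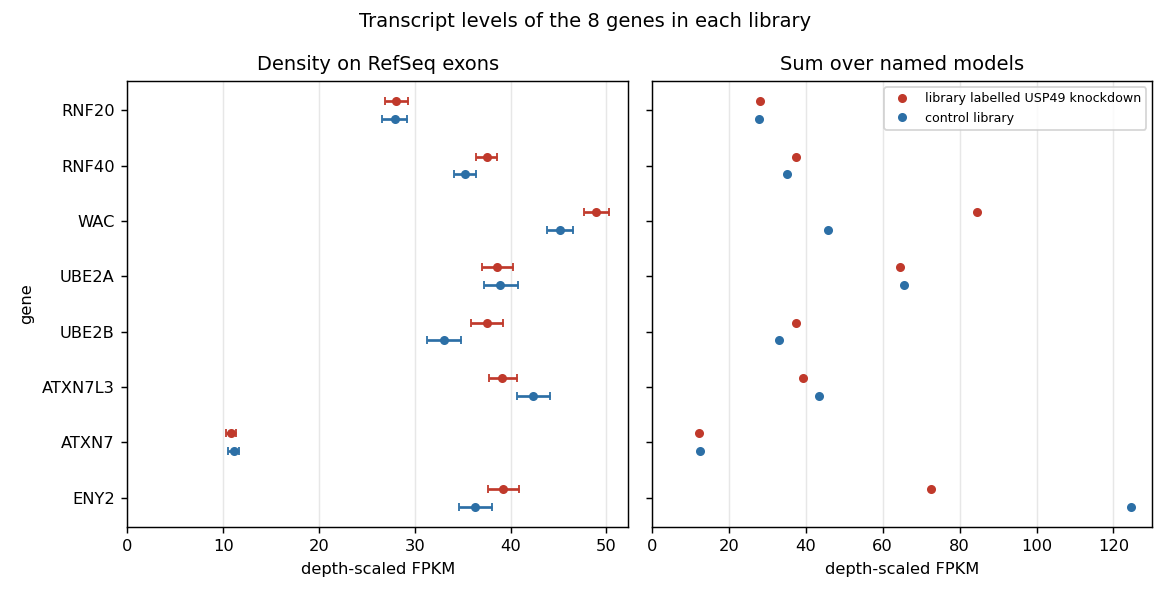
Transcript levels of the 8 genes in each library, in depth-scaled FPKM on linear axes; the left panel shows exon density with 95% counting intervals and the right panel the sum over named models. On exon density the libraries lie close together for every gene, while the sum sets WAC at 84.4 FPKM in the library labelled knockdown and 45.7 in control, and ENY2 at 72.6 in the library labelled knockdown and 125 in control.

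In the library labelled knockdown the order of exon densities was WAC, ENY2, ATXN7L3, UBE2A, UBE2B, RNF40, RNF20 and ATXN7. In control it was WAC, ATXN7L3, UBE2A, ENY2, RNF40, UBE2B, RNF20 and ATXN7. In both libraries the intervals of neighbours overlapped from the second place to the sixth, so the order of neighbours there is not resolved. Places further apart could be separate in control, where ATXN7L3 (40.7 to 44.1) did not overlap ENY2 (34.6 to 38.1). WAC stood apart from the next gene in the library labelled knockdown, while in control its interval overlapped that of ATXN7L3. These places rest on the exon union, which for UBE2A includes the 3-exon model listed at 0. Its model NM_003336 alone stood at 64.4 FPKM in the library labelled knockdown and 54.7 FPKM in control. Both values are above the exon density of WAC, 48.9 FPKM in the library labelled knockdown and 45.1 FPKM in control. RNF20 and ATXN7 stood apart from their neighbours in both libraries. Among all genes measured, ATXN7 was at percentile 42.6 in the library labelled knockdown and 43.1 in control. The other 7 lay between percentiles 73.0 and 86.2 in the library labelled knockdown and between 72.9 and 84.5 in control.

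Summed over models, 2 of the genes had ratios far from those of exon density. WAC had 84.4 FPKM in the library labelled knockdown and 45.7 FPKM in control, a log2 ratio of 0.87. ENY2 had 72.6 FPKM in the library labelled knockdown and 125 FPKM in control, a log2 ratio of -0.77. The fragments on the same models did not differ in that way: WAC had 5406 in the library labelled knockdown and 4222 in control (log2 ratio 0.07), and ENY2 had 2325 in the library labelled knockdown and 1760 in control (0.11). The WAC sum in the library labelled knockdown and both ENY2 sums held short assembled models, on which a given number of fragments makes a higher FPKM. By the sum, 9.18% of all genes were 0.5 or more from 0 on the log2 scale, against 1.82% by exon density. For the other 6 genes the sum and the density gave log2 ratios on the same side of 0.

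**Figure D2:**
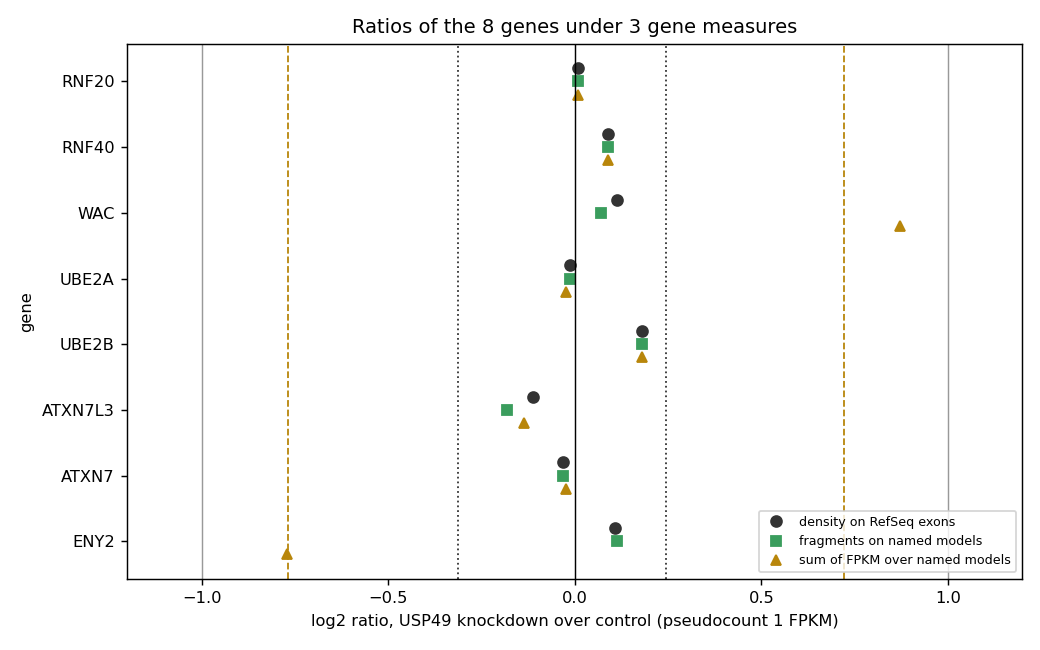
Log2 ratios (library labelled knockdown over control, 1 FPKM added to each) for each gene by exon density (circles), fragments on named models (squares) and the sum of FPKM over named models (triangles). Dotted lines mark the middle 95% of all genes by exon density (-0.31 to 0.25), dashed lines the same by the sum (-0.768 to 0.72), and grey lines 2-fold. The sums of WAC at 0.87 and of ENY2 at -0.771 lie outside the dotted lines and also outside the dashed lines, ENY2 only just. The other values lie inside the dotted lines.

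RNF20, RNF40 and UBE2B were each carried by 1 RefSeq model, the same in both libraries: NM_019592 for RNF20, NM_014771 for RNF40 and NM_003337 for UBE2B. The other RefSeq models of RNF40, NM_001207034 and NM_001207033, were listed at 0 in both libraries. The files mark the RNF20 model as fully covered by reads in control and not in the library labelled knockdown. Among all 9529 genes with 200 or more fragments in each library, 33.1% likewise had the same RefSeq models, counting models with 10% or more of a gene's fragments, against 3 of these 8 genes. For the remaining 5 genes the models with fragments differed between the libraries.

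WAC was divided among 3 models in each library, with the shared ones in different shares. NM_016628, the form with the 309-base exon, had 1887 fragments (34.9% of the gene) in the library labelled knockdown and 2385 (56.5%) in control. NM_100486, the form without it, had 1856 fragments (34.3%) in the library labelled knockdown and 799 (18.9%) in control. The third model was another one in each library, and both of these assembled models carried the exon. In the library labelled knockdown it had 12 exons and 1738 bases (chr10:28862784-28945297), with 1663 fragments and 49.3 FPKM (46.5 to 52.0 in the file's own interval). In control it had 14 exons and 6555 bases (chr10:28861407-28952047), with 1038 fragments and 9.74 FPKM (8.97 to 10.5).

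Put together by splice choice, the 309-base WAC exon was nearly equal in the libraries by FPKM, but not by fragments. Models that included it made up 78.7% of the FPKM at that choice in the library labelled knockdown and 79.4% in control, a difference of -0.64 percentage points. By fragments, the model without it had 34.3% of the gene in the library labelled knockdown and 18.9% in control. The FPKM share in the library labelled knockdown rests on the short assembled model, which had 58.4% of the gene's FPKM but 30.8% of its fragments. The choices carried by the short assembled model were far apart by FPKM. A different first exon, which lies inside the first RefSeq intron and shares no base with the RefSeq first exon, and the acceptor that leaves out the 9 capital bases of the exon 9 start, each stood at 58.4% in the library labelled knockdown and at 0 in control. The acceptor that leaves out the 3 capital bases of the exon 12 start stood at 58.4% in the library labelled knockdown and at 21.3% in control. By fragments the models with this acceptor were closer, at 30.8% in the library labelled knockdown and 24.6% in control. All 3 of these choices were read from 1 model in the library labelled knockdown, so they are not separate observations.

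UBE2A was listed with a single form in the library labelled knockdown, NM_003336, which held all 2249 fragments at 64.4 FPKM (61.7 to 67.1). In control that form had 1566 fragments at 54.7 FPKM (51.7 to 57.6), or 84.1% of the gene. The remaining 296 fragments (15.9%) were on NM_181762, the form without the 90-base exon, at 10.9 FPKM (9.24 to 12.6), while in the library labelled knockdown this form was listed at 0. Skipping of the exon thus had 0% of the FPKM in the library labelled knockdown and 16.6% in control. A listed 0 is an estimate and not a count of no reads. The form without the exon was marked as fully covered by reads in both libraries.

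ATXN7L3 had NM_001098833, the short form of the printed exon, as its main model, with 2492 fragments (89.4%) in the library labelled knockdown and 1684 (64.7%) in control. The long form, NM_020218, had 295 fragments (10.6%) at 4.14 FPKM (3.49 to 4.80) in the library labelled knockdown, and control listed it at 0. It was marked as fully covered by reads in both libraries. In control the rest lay on 2 assembled models that reach further upstream, to positions 39631429 and 39632283, with 537 fragments (20.6%) and 384 fragments (14.7%). The second of these carried the 21 bases of the long form, so by splice choice the long form stood at 10.5% of the FPKM in the library labelled knockdown and at 12.9% in control. The RefSeq model that was present in one library and at 0 in the other therefore did not stand for a large difference in its splice choice.

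ATXN7 was carried by RefSeq models only. NM_001128149, which starts at position 63928460, well inside the gene, had 787 fragments and 6.21 FPKM (5.67 to 6.74) in the library labelled knockdown and 651 fragments and 6.25 FPKM (5.65 to 6.85) in control. Its start made up 50.5% of the FPKM in the library labelled knockdown and 49.98% in control, so the inner start had nearly the same share. NM_001177387 had 826 fragments and 6.08 FPKM (5.57 to 6.59) in the library labelled knockdown and 539 fragments and 4.83 FPKM (4.31 to 5.36) in control. An exon found in this form alone stood at 49.5% of the FPKM in the library labelled knockdown and at 38.6% in control, since both other forms skip it. NM_000333, with the outermost start, had 0 FPKM listed in the library labelled knockdown and had 167 fragments and 1.42 FPKM (1.12 to 1.72) in control. The files mark none of these models as fully covered by reads in either library. In the introns of ATXN7, unspliced models without a strand held 443 fragments in the library labelled knockdown and 384 in control. These were not counted for the gene, and their strand cannot be told.

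ENY2 had NM_020189 as its main model by fragments, with 2049 (88.1%) in the library labelled knockdown and 1246 (70.8%) in control. The library labelled knockdown had 1 assembled model, of 421 bases, with 276 fragments at 37.0 FPKM (32.2 to 41.7), which is 11.9% of the fragments of the gene but 50.9% of its FPKM. Control had 2 assembled models, one of 334 bases with 273 fragments at 58.2 FPKM (50.7 to 65.7) and one of 415 bases with 241 fragments at 40.0 FPKM. The other RefSeq models, NM_001193557, NR_036471 and NR_036472, were listed at 0 in both libraries. The shorter donor of the first ENY2 exon stood at 50.9% of the FPKM in the library labelled knockdown and at 32.1% in control. By fragments the models with it had 11.9% in the library labelled knockdown and 13.7% in control, the other direction. An intron carried by the model of 334 bases stood at 0 in the library labelled knockdown and at 46.7% of the FPKM in control, where that model had 15.5% of the fragments.

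**Figure D3:**
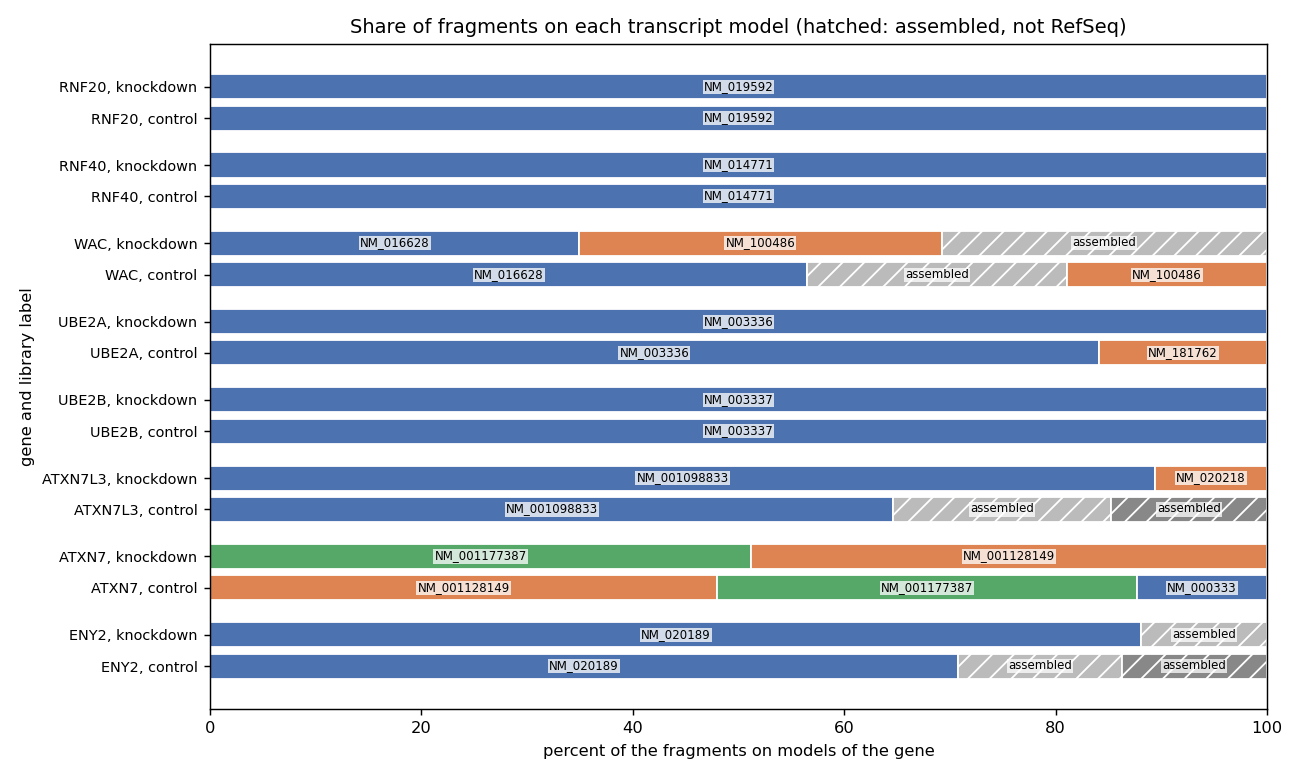
Percent of each gene's fragments on each transcript model, for the library labelled USP49 knockdown above the control library; hatched grey parts are assembled models without a RefSeq accession, and colours stand for models within a gene only. RNF20, RNF40 and UBE2B show the same single model in both libraries, and the other 5 genes show different sets or shares.

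**Figure D4:**
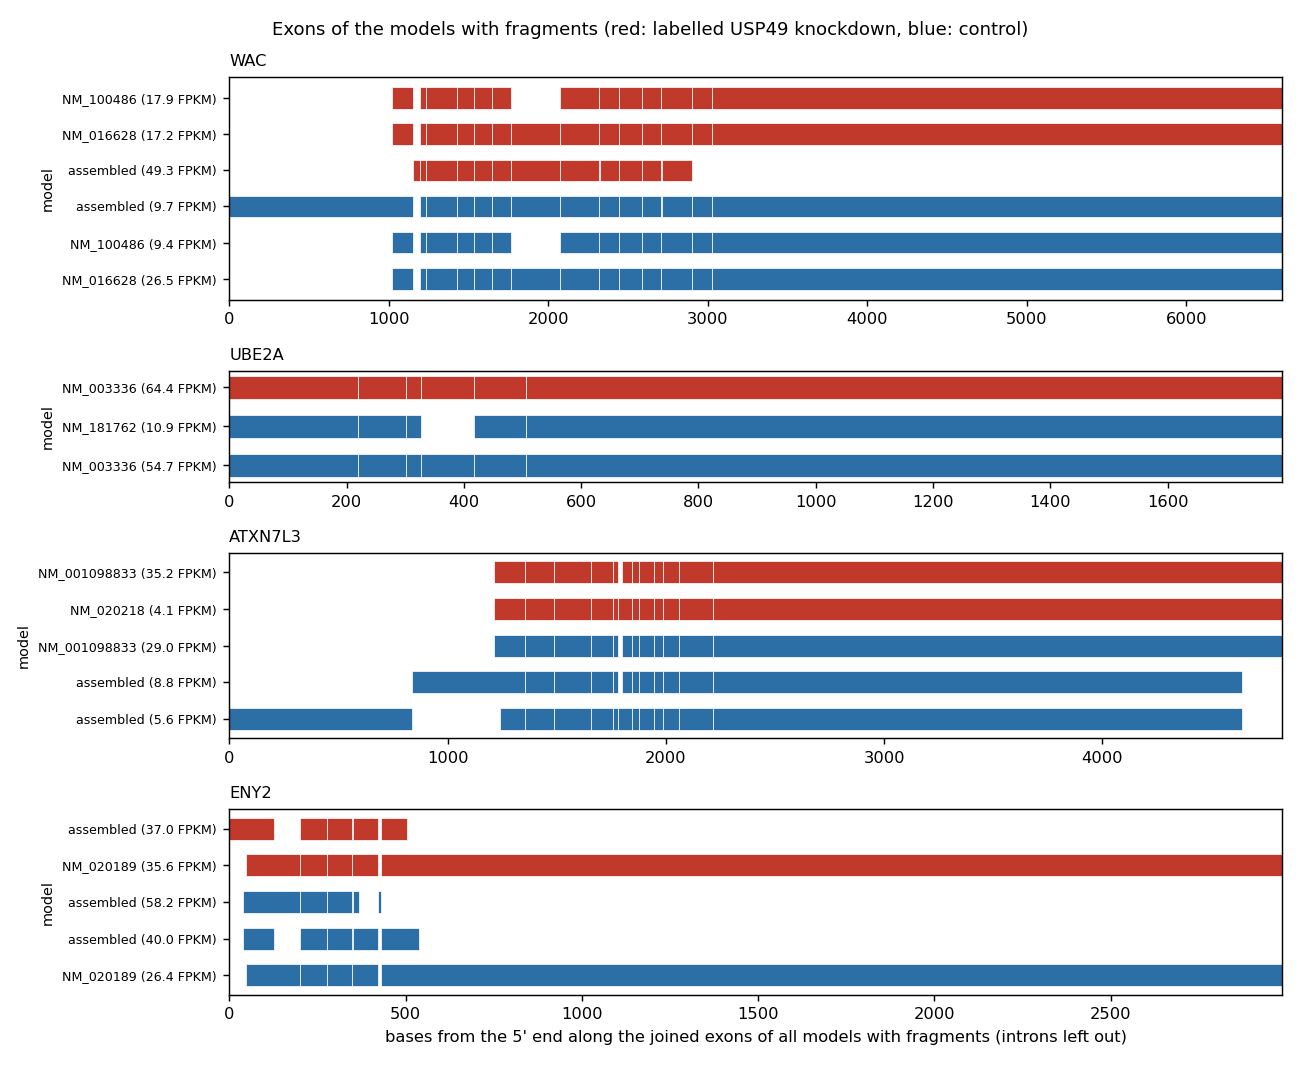
Exons of the models with fragments for WAC, UBE2A, ATXN7L3 and ENY2, to scale in bases from the 5′ end along the joined exons with introns left out; the library labelled USP49 knockdown is in red and control in blue, white lines are exon borders and gaps are bases absent from a model. The gap of 309 bases in NM_100486 of WAC, the gap of 90 bases in NM_181762 of UBE2A and the short assembled models of WAC and ENY2 are visible.

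Such differences in models were common across the assemblies. A RefSeq model with 10% or more of the fragments in one library and 0 in the other was found for 3 of the 6 genes with several RefSeq models, ATXN7, ATXN7L3 and UBE2A, and for 31.5% of all genes with several. An assembled model of 10% or more was found for 3 of the 8 genes, ATXN7L3, ENY2 and WAC, and for 63.6% of all genes. Of 25 introns of the 8 genes that compete with an overlapping intron, 18 (72%) differed by 10 percentage points or more between the libraries, against 79.1% of 23775 such introns over all genes, where the median difference was 20.8 points. By gene this was 4 of 5, all except ATXN7L3, against 85.7% of all genes. Shares near these backgrounds are no result about the 8 genes.

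The wider H2B ubiquitin pathway and SAGA were read as a list of 46 other genes, USP49 among them, of which 41 averaged 1 FPKM or more. None was past 2-fold by exon density in either direction, 15 were above 0 (36.6%, against 48.6% of all genes) and 26 below, and the median log2 ratio was -0.03, with a range from -0.29 to 0.18. By fragments on named models 14 were above 0, 27 below and 1 past 2-fold, USP49 at -1.25, which is 0.14 by exon density. Intervals of the ratio lay above 1 for 3 of the 41 and below 1 for 9, beside the 13.0% and 14.1% of all genes, which were not matched for fragments. Without depth scaling, where the median of all genes shifts to 0.25, 40 of the 41 were above 0, as were 94.8% of all genes.

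The PAF1 complex, which brings the ligase to elongating polymerase, had 4 of 6 genes above 0 and a median of 0.05. CDC73, at 23.1 FPKM in the library labelled knockdown and 21.0 FPKM in control, had an interval above 1, and RTF1, at 16.7 FPKM in the library labelled knockdown and 18.01 FPKM in control, had one below 1; by the sum over models both crossed 0, CDC73 to -0.90 and RTF1 to 0.37. Among other H2B deubiquitinases and their partners, 5 of 9 measured genes were above 0 by exon density, USP49 included, and 4 of 9 by fragments on named models. USP22, the SAGA protease that ATXN7L3 and ENY2 serve, had 75.3 FPKM in the library labelled knockdown and 79.5 FPKM in control, with an interval below 1 (ratio 0.947, 0.917 to 0.979). The rest of SAGA had 6 of 14 measured genes above 0 and a median of -0.03. TADA2B, of the SAGA acetyltransferase module, had 7.09 FPKM in the library labelled knockdown and 8.90 FPKM in control (ratio 0.796, 0.711 to 0.892). By exon density it was the furthest from 0 of the list, at a log2 ratio of -0.29. Its log2 ratio was -0.61 by fragments on named models and -0.18 by the sum over models. KAT2B, an acetyltransferase, had 3.06 FPKM in the library labelled knockdown and 2.58 FPKM in control (1.19, 0.988 to 1.43). TADA1, a SAGA core subunit, had 17.1 FPKM in the library labelled knockdown and 15.0 FPKM in control (1.14, 1.02 to 1.27).

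All 7 genes of methyltransferases linked to ubiquitinated H2B and their partners were below 0, with a median of -0.08, as were both FACT subunits and all 3 relatives of ATXN7 and ATXN7L3, while without depth scaling, which lifts nearly all genes alike, each of them was above 0. Scaled to summed density all of them were below 0 too, and by fragments on named models the 7 and both FACT subunits were, with 1 of the 3 relatives above 0. Among all genes 48.6% were above 0 by exon density. DOT1L, which methylates H3K79 on ubiquitinated nucleosomes, had 13.5 FPKM in the library labelled knockdown and 15.1 FPKM in control (ratio 0.893, 0.837 to 0.952). By the sum over models, 3 of the 7 were above 0. These lists were chosen with earlier results known, and their counts are a description of 2 libraries.

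**Figure D5:**
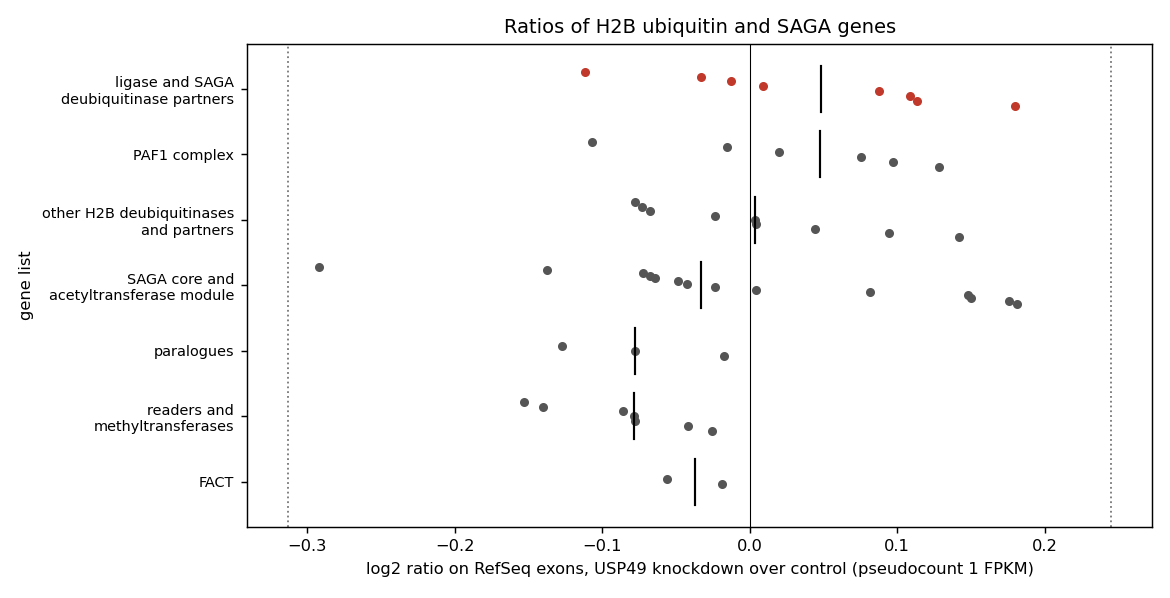
Log2 ratios by exon density (library labelled knockdown over control, 1 FPKM added to each) for the 8 genes (red) and the 41 measured genes of the wider pathway (grey) by list; black ticks are list medians and dotted lines the middle 95% of all genes. The points lie between -0.29 and 0.18, inside the dotted lines.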

How the data were processed

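Poly(A) RNA of 2 libraries was sequenced, 1 per group. The deposited files are Cufflinks assemblies made separately for each library, per the file headers, on hg18. Other tools in the submitters' processing notes are Bowtie, TopHat, Picard, SAMtools and bedtools, with versions not given in the sources used here. The protocol marks no strand, per the labels. The values the authors deposited as FPKM were not divided by depth. In loci with 1 model their intervals (value ± 2 Poisson SD) gave fragment numbers that were whole within 0.02 for 18603 of 19675 loci in the library labelled knockdown (94.6%) and 17406 of 18346 in control (94.9%). Fragments were recovered for each model in proportion to value × 2 × (length − 47 bases), with a longer correction of 252.2 bases in the library labelled knockdown and 245.9 in control for unspliced assembled models, and scaled to the totals without chrM. The deposited score column was not used.

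Fragments of each model were spread evenly over its exons, so exon density still rests on the models. Genes needed 300 exonic bases and a mean of 1 FPKM. Of 41157 accessions, 39319 were named by a RefSeq table, 514 by GENCODE 29, 480 by the files and 844 not at all. Splice shares are the FPKM of models with an intron over that of models with it or with an overlapping one. The genes described, the pathway and marker lists and the measures were chosen with earlier results of these data known. Named in the text are USP49, the 8 genes, their models with 10% or more of the fragments, the 4 pathway genes furthest from 0 (with 50 or more fragments) and any past 2-fold; CDC73, RTF1, USP22 and COL1A1 were named after their values were seen. The steps were run on simulated data built with the same length corrections and the same models in both simulated libraries. Models that differ between libraries were therefore not tested. Alternatives were the sum over models, models of the gene's own strand, no depth scaling, TPM, pseudocounts of 0.1 and 5 FPKM, and minimums of 0 and 5 FPKM. Python 3.11.15, numpy 2.4.6, pandas 2.3.3, scipy 1.17.1 and matplotlib 3.10.9 were used.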

Additional observations from a re-analysis of the deposited data

How the results depend on the processing

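None of the 8 genes passed 2-fold under any setting tried: the sum over models, fragments on named models, the gene's own strand, no depth scaling, TPM, pseudocounts of 0.1 and 5 FPKM, no minimum and a minimum of 5 FPKM. Fragments on named models, and the sum over RefSeq models alone, were chosen after seeing the data. The median of the 8 log2 ratios was 0.05 by exon density and 0.33 without depth scaling, where the median of all genes was 0.25. It was -0.0075 by the sum over models. The number of genes past 2-fold was 97 by exon density, 361 by the sum over models, 352 by fragments on named models, 37 with a minimum of 5 FPKM and 38 with a pseudocount of 5 FPKM. Without depth scaling all 8 genes lay between 0.17 and 0.46. The sum over RefSeq models alone gave WAC -0.03, ENY2 0.42 and ATXN7L3 0.43, since fragments on assembled models are left out there. No paired analysis was possible because each group has 1 library. The counting interval of a gene's log2 ratio had a median half-width of 0.09 over all genes, narrower for genes with more fragments, and nothing here measures the spread between cultures.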
